A study of Homo sapiens with 12 samples.

Results

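The genes of the red cell membrane skeleton and of its main membrane anchor, band 3, were followed in K562 cells, a human erythroleukaemia line labelled as bone marrow. The set was chosen by symbol and held 9 genes, SLC4A1, ANK1, SPTB, EPB41, EPB42, DMTN, ADD2, TMOD1 and TMOD2, all found among the 28278 genes of the count table. All 9 were also among the 15805 genes that passed the filter on low counts. Total RNA was sequenced from 4 groups of 3 libraries, which were WT cells left untreated, WT cells given sodium butyrate, HRG1-KO cells (KO) left untreated and HRG1-KO cells given sodium butyrate. HRG1 is a heme transporter encoded by SLC48A1, and butyrate inhibits histone deacetylases and drives K562 cells towards the erythroid lineage. The dose was 0.75 mM, given 24 h after plating and again 48 h later, with collection 6 h after the second dose, and the series places the samples at day 8 of differentiation. The number of KO clones, how the knockout was made and whether libraries came from separate cultures are not given in the sources used here, so that p-values measure only the spread between these libraries, which may be technical.

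The libraries held 19963594 to 30348538 counts. SLC48A1 had 1357 to 1945 counts in the 6 WT libraries and 55 to 313 in the 6 KO libraries, so the values go with the labels. The 9 erythroid markers (GATA1, KLF1, TAL1 and others) summed to 1224 to 3359 CPM (counts relative to the library's total, scaled by TMM) over the 12 libraries, whereas PF4, a platelet gene, and MS4A1, a B cell gene, had 0 counts in all 12 libraries. Of the 9, TFRC weighed most in the sum, with means of 581 and 653 CPM in WT and 1457 and 957 CPM in KO (untreated, then treated). Library number 1 of treated WT stood apart on the second principal component, at 40.9, among the untreated libraries (15.3 to 75.6) and away from numbers 2 and 3 of both treated groups (-84.8 to -74.3). Number 1 of treated KO lay between, at 4.21. Results that rest on these libraries are given below also without the 4 libraries numbered 1. In these bulk samples, fewer cells of a type and less RNA per cell cannot be told apart.

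In the red cell, a lattice of spectrin tetramers lies under the lipid bilayer and gives the cell its elasticity. Ankyrin, the product of ANK1, and the EPB42 product hold spectrin to band 3, the chloride and bicarbonate exchanger encoded by SLC4A1. Each end of the tetramer meets short actin filaments in a junctional complex with the products of EPB41, DMTN (dematin) and ADD2 (beta adducin). Tropomodulins cap the slow-growing ends of those filaments. Mutations in several of these genes are known causes of hereditary spherocytosis or elliptocytosis.

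The start regions of 5 transcripts are shown because the results turn on TMOD1 against TMOD2 and because SPTB and EPB42 differed between the genotypes in opposite directions. Each window holds 250 bases before and 50 after a start annotated by RefSeq (build GRCh38.p14), written 5′ to 3′ on the gene's strand. Capitals mark every GATA with A or T before it and A or G after it, on either strand, the letters that GATA factors prefer. Such a match occurs in 25.0% of the 35116 windows of this length, and it is a description, not a site. Of the 9 genes, 6 matched this table, with 10 windows in all.
TMOD1, chr9:97500930-97501229, plus strand: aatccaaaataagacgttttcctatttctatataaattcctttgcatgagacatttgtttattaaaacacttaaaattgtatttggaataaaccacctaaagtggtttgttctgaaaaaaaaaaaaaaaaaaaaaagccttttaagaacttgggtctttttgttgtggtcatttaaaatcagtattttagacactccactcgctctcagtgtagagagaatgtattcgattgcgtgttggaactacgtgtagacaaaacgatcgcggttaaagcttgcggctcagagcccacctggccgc
TMOD1, second start, chr9:97501416-97501715, plus strand: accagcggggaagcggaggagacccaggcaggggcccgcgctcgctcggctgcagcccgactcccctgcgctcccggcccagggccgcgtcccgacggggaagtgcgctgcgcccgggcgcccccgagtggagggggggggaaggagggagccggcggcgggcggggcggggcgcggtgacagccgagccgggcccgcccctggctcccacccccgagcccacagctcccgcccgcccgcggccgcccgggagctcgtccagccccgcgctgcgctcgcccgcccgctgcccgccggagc
TMOD2, chr15:51751347-51751646, plus strand: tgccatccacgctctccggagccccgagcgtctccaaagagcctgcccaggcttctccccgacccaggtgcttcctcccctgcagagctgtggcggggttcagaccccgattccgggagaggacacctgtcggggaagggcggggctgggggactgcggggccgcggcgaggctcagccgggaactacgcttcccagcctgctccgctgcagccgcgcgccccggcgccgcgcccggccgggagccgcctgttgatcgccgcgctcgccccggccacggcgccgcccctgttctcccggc
SPTB, chr14:64879858-64880157, minus strand: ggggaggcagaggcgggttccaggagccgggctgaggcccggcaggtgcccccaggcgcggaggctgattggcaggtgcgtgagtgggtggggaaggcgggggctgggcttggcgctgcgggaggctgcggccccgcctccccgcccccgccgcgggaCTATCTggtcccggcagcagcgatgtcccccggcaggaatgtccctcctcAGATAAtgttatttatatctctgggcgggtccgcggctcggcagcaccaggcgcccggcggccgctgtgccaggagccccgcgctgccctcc
EPB42, chr15:43220969-43221268, minus strand: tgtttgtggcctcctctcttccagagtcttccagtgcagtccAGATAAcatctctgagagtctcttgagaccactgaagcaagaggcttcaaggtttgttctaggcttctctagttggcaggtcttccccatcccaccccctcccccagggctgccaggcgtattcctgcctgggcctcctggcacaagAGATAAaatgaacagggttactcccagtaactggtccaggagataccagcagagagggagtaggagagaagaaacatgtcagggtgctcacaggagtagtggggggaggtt
The SPTB window shown held 2 matches and that of EPB42 also 2, against 0 in each of the TMOD1 windows and 0 in that of TMOD2. A second SPTB window, not shown (chr14:64823331-64823630, minus strand), held 0 matches and 10 CpG dinucleotides, and EPB41 and ADD2 each held 1 match in 1 of their 2 windows. TMOD2 had 36 CpG dinucleotides in its window, TMOD1 10 and 44, the SPTB window shown 28 and EPB42 1, where the median over all windows was 14.

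Band 3 was the one member that rose with butyrate in both genotypes. SLC4A1 (17:44248385-44268141, minus strand, GENCODE v29 on GRCh38, as for the positions that follow) stood at 0.542, 0.325 and 2.22 CPM in untreated WT libraries 1, 2 and 3 and at 58.3, 13.6 and 21.1 CPM in treated WT. In KO it stood at 2.14, 1.05 and 1.97 CPM untreated and at 10.6, 26.9 and 17.3 CPM treated. Every treated library lay above every untreated library of its genotype. The rise was 28.98-fold in WT (log2 fold change 4.86, SE 0.77, edgeR adjusted p 0.0102) and 10.6-fold in KO (3.404, SE 0.72, adjusted p 0.0272). The WT value was 6.16 without untreated WT library 3, 4.01 without treated WT library 1 and 3.69 without the libraries numbered 1, and these fits passed (edgeR adjusted p 0.0102, 0.00694 and 0.00841). No difference between the 2 responses passed (interaction -1.45, SE 0.95, edgeR adjusted p 1.00), and without the libraries numbered 1 the interaction was 0.13. Nor did KO differ from WT in SLC4A1 beyond the spread, at 0.69 (SE 0.70, edgeR adjusted p 0.534) untreated and -0.76 (SE 0.64, adjusted p 0.467) treated, the latter being 0.33 without the libraries numbered 1. In edgeR, the call in WT was lost without untreated WT library 1 (adjusted p 0.0599) or 2 (0.0524). The call in KO was lost without untreated KO library 1 (0.0906), 2 (0.141) or 3 (0.0697) or treated KO library 2 (0.111) or 3 (0.0534).

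Band 3 remained a minor transcript among the anion exchangers when levels were set per kb of exon. SLC4A2, the widely expressed exchanger, made up 99.1% ± 0.634 (SD, n = 3) of the family's CPM per kb in untreated WT, and SLC4A1 0.521% ± 0.527. With butyrate, SLC4A1 reached 10.4% ± 4.53 in WT and 13.8% ± 5.20 in KO. SLC4A3, a further member of that family, was the 1 gene of 13 tested non-erythroid counterparts that rose with butyrate when all libraries were used, and it did so in both genotypes, by 3.01 (SE 0.71, edgeR adjusted p 0.0484) in WT and by 5.14 (SE 0.80, adjusted p 0.00773) in KO on the log2 scale. Over all genes, 1.8% passed as higher with butyrate in WT and 2.8% in KO. Without the libraries numbered 1, edgeR called 3 counterparts higher and 1 lower in WT, and 4 higher and 1 lower in KO, where 11.4% and 13.1% of all genes passed. The WT call for SLC4A3 was lost without untreated WT library 1 (edgeR adjusted p 0.179), 2 (0.168) or 3 (0.110) or treated WT library 2 (0.169) or 3 (0.133), and the KO call without untreated KO library 2 (0.0637). SLC4A2 itself was lower in KO than in WT, at -1.22 untreated (edgeR adjusted p 0.00322) and -1.21 treated (adjusted p 0.00412) on the log2 scale.

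Neither anchor of band 3 passed the test for butyrate in either genotype. ANK1 (8:41653220-41896762, minus strand) had 242, 167 and 211 CPM in untreated WT and 404, 143 and 107 CPM in treated WT. In KO it had 153, 162 and 92.3 CPM untreated and 289, 122 and 75.7 CPM treated. In both genotypes treated library 1 was the highest. In WT, treated libraries 2 and 3 lay below every untreated library, whereas in KO treated library 2 lay above untreated library 3. The log2 response to butyrate was 0.08 in WT (SE 0.51, edgeR adjusted p 0.965) and 0.26 in KO (SE 0.51, adjusted p 0.832), and without the libraries numbered 1 the values were -0.61 (adjusted p 0.234) and -0.37 (adjusted p 0.459). Untreated KO libraries all lay below untreated WT, but the difference of -0.61 (SE 0.52) did not pass (edgeR adjusted p 0.447). ANK1 shares exon bases with AC113133.1 and RF00019 on the opposite strand, and the strand setting of the counting is not given.

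EPB42 (15:43197227-43221125, minus strand), which encodes a relative of transglutaminases that has lost enzyme activity, was near the limit of detection and lower in KO. In WT the counts were 18, 24 and 56 without butyrate and 130, 37 and 69 with it. In KO the counts were 5, 0 and 8 without butyrate and 7, 2 and 6 with it, so no KO library reached a WT library. KO differed from WT by -2.84 (SE 0.94, edgeR adjusted p 0.0460) in untreated and by -4.17 (SE 0.97, adjusted p 0.00955) in treated cells, in log2 units. The untreated call was lost in edgeR without any 1 of its libraries (adjusted p 0.0631, 0.0760 and 0.126 without WT library 1, 2 or 3, and 0.0823, 0.103 and 0.0727 without KO library 1, 2 or 3), while the treated call passed in all 6 such fits, at -3.30 (adjusted p 0.0260) without treated WT library 1. The treated WT value rested on library 1, with 6.74 CPM against 1.58 and 2.19 CPM in the others, and the butyrate change in WT was 1.39 (SE 0.84, edgeR adjusted p 0.423). Exons of EPB42 overlap AC068724.4 on the same strand, so the counts may include its reads.

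The spectrin gene SPTB was higher in untreated KO than in untreated WT. SPTB (14:64746283-64879907, minus strand), the beta chain of the erythroid tetramer, was at 77.2, 58.1 and 72.8 CPM in untreated WT and at 154, 153 and 108 CPM in untreated KO, with no overlap. Treated libraries stood at 143, 101 and 71.8 CPM in WT and 107, 145 and 103 CPM in KO and overlapped. The genotype difference was 1.00 in log2 units (SE 0.26, edgeR adjusted p 0.0150) in untreated cells and 0.17 (SE 0.26, adjusted p 0.716) in treated cells. Neither the butyrate change in WT (0.60, SE 0.26, edgeR adjusted p 0.242) nor that in KO (-0.23, SE 0.26, adjusted p 0.678) passed. The interaction was -0.83 (SE 0.36, edgeR adjusted p 1.00), and SPTB was the only member with an unadjusted interaction p under 0.05 (0.0409). Of all 15805 tested genes, 658 had an unadjusted edgeR interaction p under 0.05. The call in untreated cells was lost without WT library 2 (edgeR adjusted p 0.0658) or KO library 1 (0.0528) or 2 (0.0611). Exons of SPTB overlap those of PLEKHG3 on the opposite strand, and whether counting used strand is not given in the sources used here.

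In the junctional complex of untreated cells, EPB41 was higher in KO, whereas DMTN and ADD2 were lower, and ADD2 was also lower in treated KO. EPB41 (1:28887091-29120046, plus strand), whose product strengthens the bond of spectrin with actin, was at 176, 259 and 301 CPM in untreated WT and 536, 476 and 412 CPM in untreated KO, with no overlap. After butyrate it was at 383, 227 and 280 CPM in WT and 473, 490 and 339 CPM in KO, where the groups overlapped. KO exceeded WT by 0.95 in log2 units (SE 0.26, edgeR adjusted p 0.0182) untreated, with 0.55 (SE 0.26, adjusted p 0.160) treated. The untreated call was lost in edgeR without WT library 1 (adjusted p 0.0735), KO library 1 (0.0640) or 2 (0.0579), or without all the libraries numbered 1 (0.64, adjusted p 0.0703). Butyrate left EPB41 within the spread in WT (0.27, SE 0.25, edgeR adjusted p 0.633) and in KO (-0.13, SE 0.25, adjusted p 0.832). EPB41 shares exon bases with TMEM200B on the opposite strand, so the same limit of an unknown strand setting holds.

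DMTN (8:22048995-22082527, plus strand), which bundles actin, was at 48.4, 26.2 and 58.9 CPM in untreated WT and 4.76, 8.80 and 15.2 CPM in untreated KO. Butyrate libraries were at 241, 51.2 and 44.5 CPM in WT and 26.7, 41.99 and 26.4 CPM in KO. No KO library reached a WT library of the same treatment. The genotype difference was -2.21 (SE 0.62, edgeR adjusted p 0.0224) untreated and -1.82 (SE 0.61, adjusted p 0.0546) treated. Without the libraries numbered 1 these were -1.84 (adjusted p 0.00790) and -0.51 (adjusted p 0.382). The untreated call was lost without WT library 1 (edgeR adjusted p 0.0536) or 3 (0.0730) or KO library 1 (0.0855) or 2 (0.0784), and the treated one was gained without WT library 2 (0.0393) or 3 (0.0272), with no filter (0.0324) and in DESeq2 (0.0129). In KO, all treated libraries exceeded all untreated ones (1.72, SE 0.61, edgeR adjusted p 0.142, and 1.49 with adjusted p 0.0370 without the libraries numbered 1, and 1.76 with adjusted p 0.0398 in DESeq2). In WT the butyrate change of 1.33 (SE 0.60, edgeR adjusted p 0.268) was 0.15 without the libraries numbered 1.

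ADD2 (2:70607618-70768225, minus strand), the adducin subunit of red cells and brain, was lower in KO with and without butyrate. WT libraries held 57.4, 68.3 and 85.3 CPM untreated and 87.7, 67.0 and 101 CPM treated. KO libraries held 28.8, 12.1 and 17.4 CPM untreated and 46.3, 25.4 and 28.2 CPM treated, all below the lowest WT library. KO minus WT was -1.86 in log2 units (SE 0.33, edgeR adjusted p 0.00157) untreated, in all 6 fits that left out 1 library, and -1.36 (SE 0.33, adjusted p 0.0117) treated, lost only without treated KO library 2 (0.0513). Butyrate changes of 0.28 (SE 0.32, edgeR adjusted p 0.709) in WT and 0.78 (SE 0.32, adjusted p 0.204) in KO did not pass. Of the adducins' CPM per kb of exon, ADD2 made up 18.2% ± 1.38 in untreated WT and 7.24% ± 3.79 in untreated KO (SD, n = 3). ADD1, the alpha subunit, differed by -0.18 (SE 0.21, edgeR adjusted p 0.598) between untreated genotypes.

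The tropomodulins TMOD1 and TMOD2 differed in where they were detected. TMOD1 (9:97501180-97601748, plus strand), the form of red cells and striated muscle, was present in all groups, and TMOD2 (15:51751561-51816368, plus strand), the form best known from neurons, was detected in WT cells and in no KO library. In WT, TMOD1 was at 28.0, 44.0 and 46.1 CPM untreated and at 63.2, 57.6 and 51.0 CPM treated. In KO it was at 35.3, 55.8 and 52.2 CPM untreated and at 39.3, 56.3 and 44.9 CPM treated. Treated WT lay wholly above untreated WT, and the other pairs of groups that differ in 1 factor overlapped. Butyrate minus untreated was 0.54 for TMOD1 in WT (SE 0.24, edgeR adjusted p 0.268) and -0.03 in KO (SE 0.24, adjusted p 0.972), the latter turning to 0.0072 with DESeq2 size factors and 0.091 with library size alone. The WT value was 0.25 without the libraries numbered 1, and the same-numbered differences in WT were 1.17, 0.39 and 0.15 for numbers 1, 2 and 3. KO against WT gave 0.28 (SE 0.24, edgeR adjusted p 0.463) untreated and -0.29 (SE 0.24, adjusted p 0.462) treated. No test of TMOD1 passed. TMOD1 shares exon bases with TSTD2 on the opposite strand, so without a known strand setting its counts may include TSTD2 reads.

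TMOD2 held 159, 370 and 425 counts in untreated WT and 238, 1821 and 2589 in treated WT, which is 8.61, 17.2 and 14.3 CPM and 12.3, 77.7 and 82.3 CPM. It held 0 counts in each of the 6 KO libraries, where the detection limit of 3 counts corresponds to 0.0967 to 0.161 CPM. With that limit taken in each KO library, TMOD2 was at least 99.3-fold lower in untreated KO (edgeR adjusted p 0.000456) and at least 517-fold lower in treated KO (adjusted p 0.000188), and it passed in all 6 fits leaving out 1 library in each. Without the libraries numbered 1 the treated limit was -9.70 in log2 units. The 2 genes that precede TMOD2 on chromosome 15 were also at or near 0 in KO, and from counts a loss of the genes and a loss of their transcripts cannot be told apart, which bears on these folds and on the ratio of TMOD1 to TMOD2. In WT, the butyrate change of 2.10 (SE 0.63) did not pass (edgeR adjusted p 0.134), library 1 of treated WT lying within the untreated range. It passed without that library (2.57, adjusted p 0.00579), without the libraries numbered 1 (2.33, adjusted p 0.00162), in DESeq2 (2.12, adjusted p 0.0150) and with the replicate block (1.78, adjusted p 0.0321). A butyrate change in KO has no value, because both groups were at 0. The neuronal markers in WT summed to 3.85 to 5.09 CPM without butyrate and 47.1 to 81.2 with it, and in KO to 8.46 to 16.7 and 19.6 to 52.3, with 2 of the 6 genes above 3 counts in WT and 3 in KO. SYP, a synaptic vesicle gene, was the most abundant, at 3.82 CPM without and 59.9 with butyrate in WT (log2 change 3.97, edgeR adjusted p 0.00457). Other markers of this list moved the other way, with means of 2.30 CPM without and 1.09 with butyrate for SYT1 in KO, and 0.457 and 0.156 for RBFOX3 in WT. The 2 neuronal markers that were tested both passed as higher in untreated KO than in untreated WT, where 11.7% of all genes did. SNAP25, STMN2 and ELAVL4 had 0 counts in every WT library, and the part of these markers in the TMOD2 result was not tested.

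**Figure D1:**
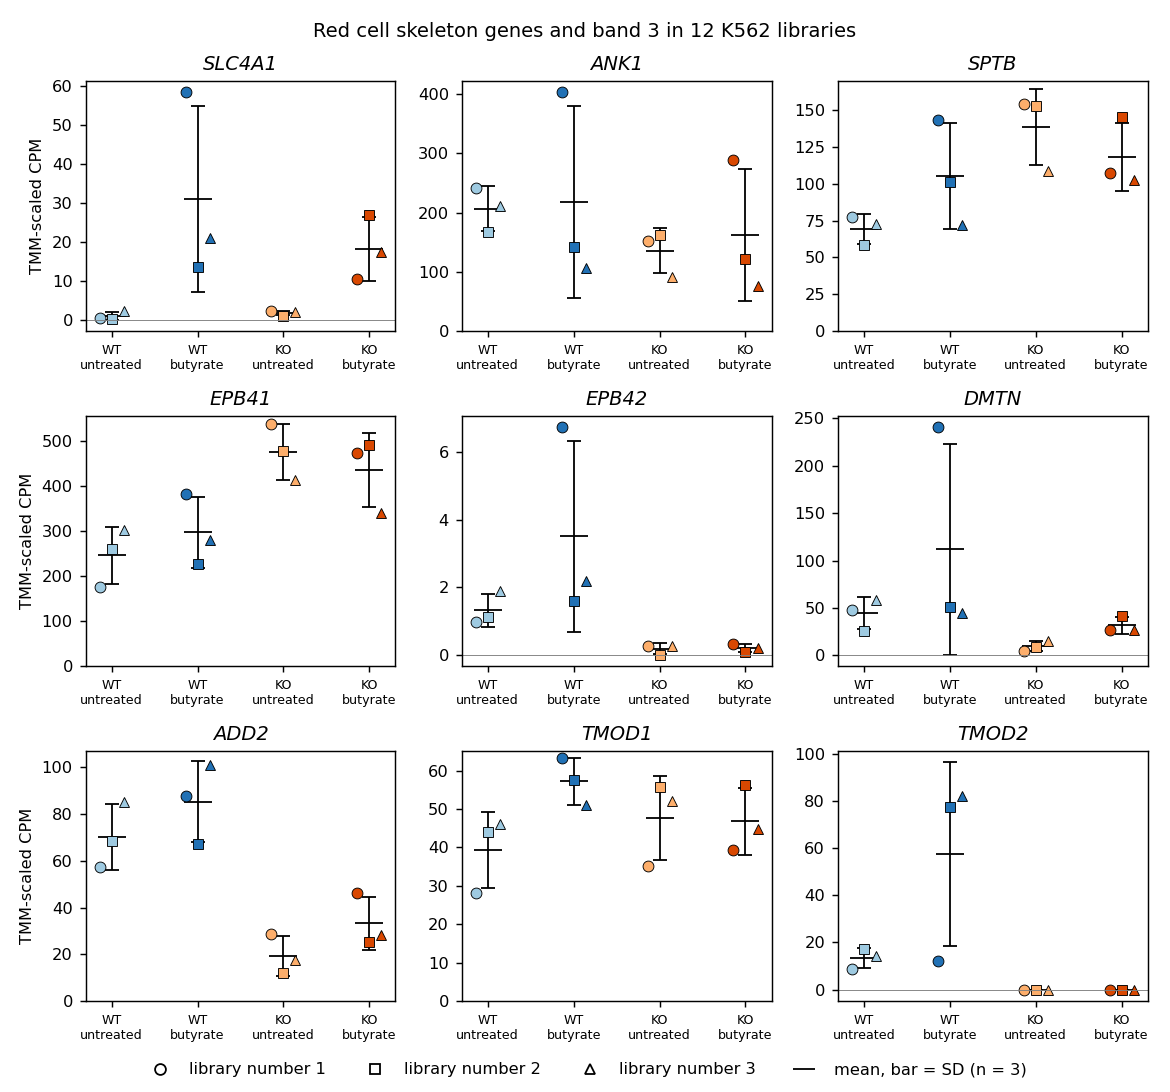
TMM-scaled CPM (vertical axis, linear, a scale per gene) of the 9 genes in each library of the 4 groups; circles, squares and triangles are library numbers 1, 2 and 3, and bars are the mean and SD of 3 libraries. SLC4A1 rises in both treated groups, and TMOD2 is at 0 in all 6 KO libraries. Library 1 of treated WT is the highest point for SLC4A1, ANK1, EPB42, DMTN and TMOD1.

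To compare TMOD1 with TMOD2 within a library, the log2 ratio of their counts was taken with 0.5 added to each. It was 1.70, 1.36 and 1.69 in untreated WT and 2.36, -0.43 and -0.69 in treated WT, so that TMOD2 had more counts than TMOD1 in 2 of the 3 treated WT libraries. In KO, where the ratio is set by TMOD1 and the added 0.5, it was 10.4, 11.2 and 11.6 untreated and 10.7, 11.7 and 11.4 treated. The mean difference of KO from WT was 10.2 (two-sided exact permutation within treatments, p 0.005, the smallest that 400 arrangements allow). With TMOD2 at 0 counts in every KO library, the groups had to separate, so this p-value only restates the zeros. The size of the difference depends on the added constant, being 6.88 with 5 added. The mean difference of treated from untreated libraries was -0.46 (two-sided exact permutation within genotypes, p 0.41). Its KO part follows the counts of TMOD1 alone and does not compare the 2 genes. Within WT alone the mean difference was -1.17 (exact permutation p 0.4, n = 3, where 0.1 is the smallest possible).

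Per kb of exon, untreated WT held 10.6 ± 2.67 CPM of TMOD1 and 1.15 ± 0.374 CPM of TMOD2, and treated WT 15.4 ± 1.66 and 4.94 ± 3.36 CPM (SD, n = 3). TMOD2 thus made up 5.34% ± 1.204 of the tropomodulins' CPM per kb in untreated WT and 16.3% ± 10.9 in treated WT, with 3.76% in treated library 1. TMOD3, the form found in most tissues, was second to TMOD1 by mean share, at 42.5% ± 8.95 in untreated WT and 25.8% ± 8.16 in untreated KO. KO minus WT for TMOD3 was -0.99 (SE 0.21, edgeR adjusted p 0.00490) untreated and -1.11 (SE 0.21, adjusted p 0.00298) treated. TMOD4, the skeletal muscle form, took at most 3.95% in any library. As a share of the family, TMOD1 was at 49.6% ± 6.39 in untreated WT and 72.6% ± 7.45 in untreated KO, while its own level gave no call.

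**Figure D2:**
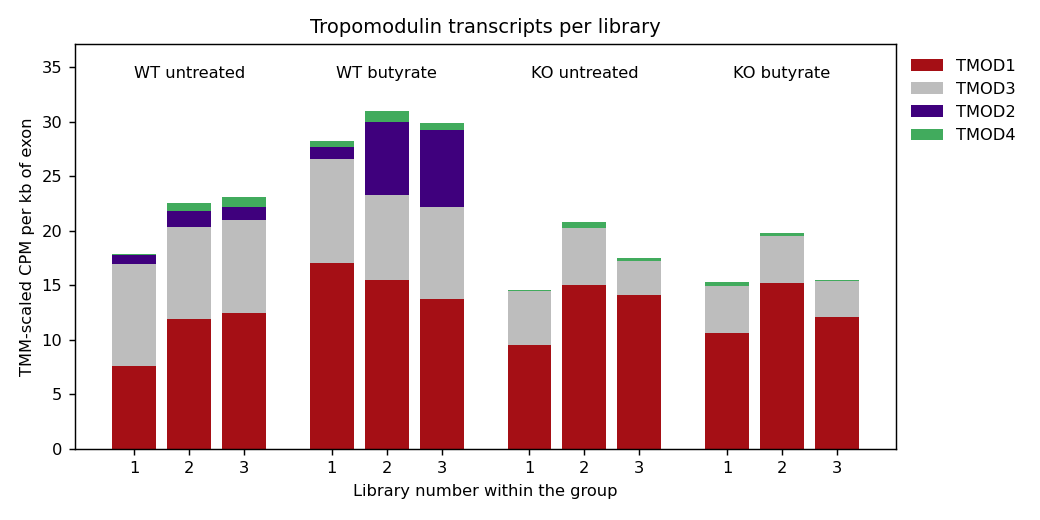
TMM-scaled CPM per kb of exon (vertical axis) of the 4 tropomodulin genes, stacked, in each library (horizontal axis, library number within the group). TMOD2 is visible in all 6 WT libraries, most in treated libraries 2 and 3, and is at 0 in the 6 KO libraries.

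The genes beside TMOD2 on chromosome 15 were then examined, a step chosen after the zeros had been seen, in the order of the RefSeq table (GRCh38.p14). SCG3, a secretory granule gene whose start coordinate lies at -70.1 kb from that of TMOD2, had 822 to 2578 counts in WT and 0 to 3 in KO. LYSMD2, at -28.6 kb, had 173 to 336 counts in WT and 0 to 5 in KO. Both were called in untreated cells (edgeR adjusted p 6.27e-07 for SCG3 and 0.000141 for LYSMD2) and in treated cells (adjusted p 7.54e-07 and 0.000110). Exons of LYSMD2 overlap those of TMOD2 on the opposite strand. Of the other 6 neighbours, 4 had a fitted value. TMOD3, the next gene on the other side at 78.1 kb, had 1853 to 2817 counts in WT and 993 to 1394 in KO. It was at 50.5% of the WT mean in untreated KO (edgeR adjusted p 0.00490) and at 46.3% in treated KO (adjusted p 0.00298). LEO1, at 186 kb, differed by -0.20 (edgeR adjusted p 0.506) untreated and -0.01 (adjusted p 0.977) treated. MAPK6, at 220 kb, was at 57.9% of the WT mean in untreated KO (edgeR adjusted p 0.00615) and at 67.2% in treated KO (adjusted p 0.0367). The latter call was lost in edgeR without the libraries numbered 1 (adjusted p 0.0867), and without treated WT library 1 (0.0723), 2 (0.0544) or 3 (0.0791) or treated KO library 1 (0.0946) or 3 (0.111). DMXL2, at -304 kb, was at 54.6% (adjusted p 0.106) and 33.1% (adjusted p 0.00951). GLDN and BCL2L10, the outermost of the 8 neighbours, did not pass the filter on low counts, with at most 2 and 6 counts in WT and at most 51 and 0 counts in KO. Zero or near-zero counts in KO were thus shared by 3 genes that follow each other, and the cause was not tested.

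**Figure D3:**
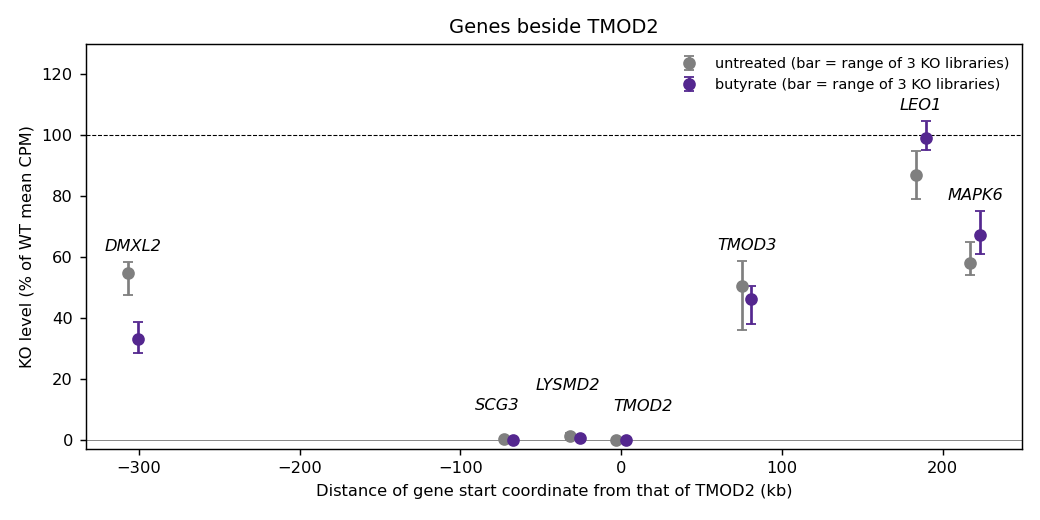
Mean CPM in KO as a percentage of the WT mean (vertical axis) against the distance of each gene's start coordinate from that of TMOD2 (horizontal axis, kb), untreated and treated, for genes above 3 counts in both WT groups; bars are the range of the 3 KO libraries. SCG3, LYSMD2 and TMOD2 lie at or near 0, and DMXL2, TMOD3, LEO1 and MAPK6 between 33.1% and 99.2%.

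Set per kb of exon, the order of the 9 genes differed between genotypes. In untreated WT, ANK1 led with 19.1 ± 3.52 CPM per kb (SD, n = 3), its range just clear of EPB41 (12.3 ± 3.19). EPB41, TMOD1 (10.6 ± 2.67), DMTN (9.95 ± 3.74), ADD2 (5.55 ± 1.11) and SPTB (4.69 ± 0.674) each overlapped the next in range. TMOD2 (1.15) stood apart below them, followed by EPB42 (0.436) and SLC4A1 (0.200), which overlapped. In untreated KO, EPB41 led with 23.7 ± 3.11, clear of TMOD1 (12.9 ± 2.95), ANK1 (12.6 ± 3.495) and SPTB (9.35 ± 1.76), which overlapped in turn, and DMTN (2.14 ± 1.17) and ADD2 (1.53 ± 0.674) lay below them. Exon lengths are from GENCODE v29 and run from 3.039 kb for EPB42 to 19.993 kb for EPB41, and transcripts that use fewer exons than the whole gene would make a level per kb too low.

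Counted together, 1 of the 9 genes passed for butyrate in WT (edgeR, adjusted p under 0.05), where 2.35% of all tested genes passed and 1.8% passed as higher. The groups did not overlap for 2 of 9, both higher, against 21.7% of all genes in either direction and 11.3% higher. The members' median log2 change was 0.60 with 9 of 9 above 0, against 0.02 over all genes. For butyrate in KO 1 of 9 passed (3.4% of all genes, 2.8% as higher) and 2 of 9 did not overlap, both higher (24.4% of all genes, 12.6% higher), with a median of 0.16 over the 8 genes with a value, 5 of them above 0, against 0 over all genes. Without the libraries numbered 1, 2 passed in WT (SLC4A1 and TMOD2) and 2 in KO (SLC4A1 and DMTN), where 11.4% and 13.1% of all genes passed. The median was then 0.25 in WT, with 7 of 9 above 0, and turned to -0.10 in KO, with 3 of 8 above 0. KO against WT in untreated cells gave 6 of 9, 2 higher and 4 lower, where 22.6% of all genes passed (11.7% higher, 10.9% lower). Treated cells gave 3 of 9, all lower, where 19% passed (8.89% lower). The medians were -0.61 and -0.76, against 0.02 and -0.002 over all genes, and -0.60 and -0.35 without the libraries numbered 1. The myeloid markers moved with genotype as well, and summed to 16.2 to 20.3 CPM in untreated WT against 37.2 to 142 in untreated KO, and to 23.6 to 36.5 in treated WT against 122 to 200 in treated KO. Of the 6 genes, 5 and 6 were above 3 counts in untreated and treated WT and 4 in each KO group, where MPO was at 0, as was ELANE in treated KO. ITGAM had a mean of 1.04 CPM in untreated WT and 40.8 in untreated KO (edgeR adjusted p 0.000769) and CSF3R 2.00 and 38.2 (adjusted p 0.000924), whereas LYZ was lower in untreated KO (-1.49, adjusted p 0.0133). Their part in the genotype results was not tested. The untreated groups did not overlap for 7 of 9 genes, 2 higher and 5 lower (42.3% of all genes, 22.2% higher and 20.2% lower), and the treated groups for 4 of 9, all lower (33.9% of all genes, 16% lower). In the interaction 0 of 9 passed in edgeR (0% of all genes) and 0 of 9 in DESeq2. An unadjusted edgeR p under 0.05 was found for 1 of 9, and for 658 of all 15805 tested genes.

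**Figure D4:**
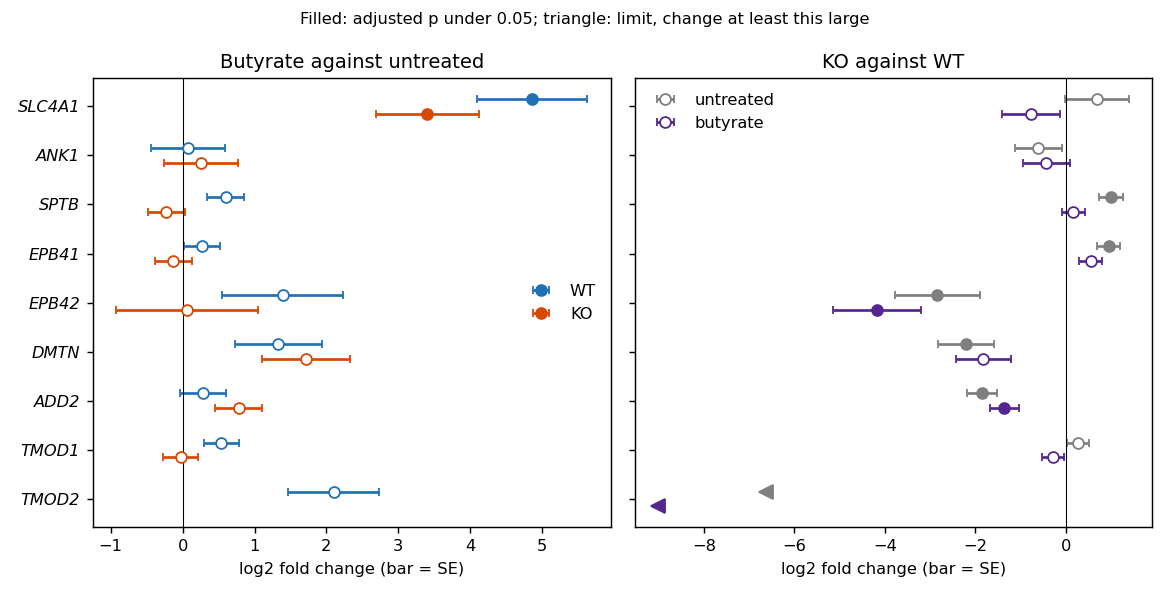
Log2 fold changes of the 9 genes (horizontal axis, with SE) for butyrate against untreated in WT and KO (left) and for KO against WT untreated and with butyrate (right); filled symbols have an edgeR adjusted p under 0.05, and triangles are limits for TMOD2, whose decrease is at least that large. SLC4A1 alone is filled on the left, at 4.86 and 3.404, and EPB42, ADD2 and TMOD2 are filled in both contrasts on the right.

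Of 15 further genes whose products sit in the skeleton or its membrane complexes, STOM (stomatin) fell with butyrate in WT by 1.26 in log2 units (SE 0.28, edgeR adjusted p 0.0377) and the others did not pass. In KO, CD47 rose by 0.83 (SE 0.19, edgeR adjusted p 0.0342) and the others did not pass. Over all genes, 2.35% passed for butyrate in WT and 3.4% in KO. STOM was lost in edgeR without untreated WT library 1 (adjusted p 0.147) or 3 (0.0936) or treated WT library 2 (0.165) or 3 (0.103). CD47 was lost in edgeR without untreated KO library 1 (adjusted p 0.127), 2 (0.163) or 3 (0.0618) or treated KO library 1 (0.0578) or 2 (0.158). Both passed without the libraries numbered 1 (edgeR adjusted p 0.0319 and 0.0431). Those fits called 1 higher and 2 lower in WT and 2 higher and 2 lower in KO, where 11.4% and 13.1% of all genes passed. The summed level of the megakaryocyte markers moved with butyrate too, and in WT ranged over 33.4 to 61.0 CPM without butyrate and 118 to 227 with it, and in KO over 15.6 to 55.4 and 81.7 to 118, with 5 of 7 genes above 3 counts in each group except untreated WT (4). ITGA2B, the most abundant except in untreated KO, rose by 1.91 in WT and 2.25 in KO (edgeR adjusted p 0.0463 and 0.0230). GP1BA, the most abundant in untreated KO, had a mean of 28.1 CPM there and 28.0 in treated KO. Of the 9 erythroid markers, 2 passed as higher with butyrate in WT and 1 in KO, where 1.8% and 2.8% of all genes did. In each genotype 6 of the 9 changed upwards and 3 downwards. ALAS2 had means of 24.0 CPM without and 193 with butyrate in WT, and 181 and 290 in KO. The part of either marker list in the butyrate results was not tested.

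Between untreated genotypes, 5 of these 15 genes passed, where 22.6% of all genes passed. XK, which carries the Kx antigen (3.07, SE 0.38, edgeR adjusted p 0.000103), was higher in KO. MPP1, a scaffold of the junctional complex, had the largest of these differences, at 467 ± 49.6 CPM in WT and 38.2 ± 11.8 in KO (SD, n = 3; log2 difference -3.61, SE 0.31, edgeR adjusted p 6.79e-06). RHAG, the Rh-associated glycoprotein (-1.46, SE 0.22, edgeR adjusted p 0.000552), STOM (-1.62, SE 0.28, adjusted p 0.00126) and TPM1, a tropomyosin that lies along the short actin filaments (-1.81, SE 0.37, adjusted p 0.00356), were also lower. All 5 passed in each fit that left out 1 library. In treated cells 4 of 15 passed, where 19% of all genes passed, with XK higher and MPP1, RHAG and ICAM4 lower. Of these, XK (1.51, edgeR adjusted p 0.0104) was lost without treated WT library 2 (0.0504) and ICAM4, an adhesion molecule of the Rh complex (-0.95, adjusted p 0.0159), without treated KO library 3 (0.0568). The median log2 difference of the 15 was -0.44 untreated and -0.29 treated, against 0.02 and -0.002 over all genes, and -0.25 in both without the libraries numbered 1.

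Among the non-erythroid counterparts, 13 of 14 were tested and 6 passed between untreated genotypes, where 22.6% of all genes passed. EPB41L2, a relative of EPB41, was higher in KO (1.95, SE 0.43, edgeR adjusted p 0.00555), and per kb of exon it reached 30.8 ± 9.72 CPM in untreated KO against 7.96 ± 4.14 in untreated WT (SD, n = 3). ANK3, an ankyrin of neurons and epithelia, had 345 to 2297 counts in WT and 0 in all but 1 KO library, which had 1. It was at least 504-fold lower in untreated KO (edgeR adjusted p 4.54e-06) and at least 381-fold lower in treated KO (adjusted p 8.18e-06). EPB41L3 had 42 to 430 counts in WT and 0 in every KO library, at least 62.7-fold lower untreated (edgeR adjusted p 0.000401) and at least 86.8-fold lower treated (adjusted p 0.000413). TMOD3, SLC4A2 and TGM2, the transglutaminase related to EPB42 (-3.93, SE 0.83, edgeR adjusted p 0.00449), were lower as well. The counterparts with the highest mean CPM over all libraries were SLC4A2, EPB41L2, SPTBN1, TGM2 and SPTAN1. SPTBN1, a beta spectrin of most tissues, had mean levels of 127 and 106 CPM in WT and 195 and 139 CPM in KO (untreated, then treated), and SPTAN1, its alpha partner, 39.7 and 75.5 CPM in WT and 74.9 and 129 CPM in KO. In treated cells ANK3, EPB41L3, TMOD3 and SLC4A2 passed, all lower in KO, where 19% of all genes passed and 8.89% as lower. Without the libraries numbered 1, edgeR called 3 counterparts higher and 6 lower between treated genotypes, where 24.7% of all genes passed. In these families, ANK1 and EPB41 were detected in every library while ANK3, EPB41L3 and TMOD2 were at or near 0 in KO. This did not divide red cell forms from the others. The counterparts TMOD3, SLC4A2 and EPB41L2 were detected in every library too, and EPB42, a red cell form, had 0 to 8 counts in KO. ANK2 had at most 1 count in untreated WT, 0 in treated WT and 10 to 31 in treated KO. The share of all genes that were at 0 in KO alone was not counted here.

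The genes whose log2 CPM over the 12 libraries most resembled that of TMOD2 were ENC1 (root mean square difference 0.33 after centring), LOC105371703 (0.58) and B3GALT1-AS1 (0.77), out of 9733 compared with a mean of at least 10 CPM. ENC1 stood at 19.8 CPM without and 65.9 CPM with butyrate in WT, and at 0.0111 and 0 CPM in KO. For TMOD1 the nearest were VPS13D (0.17), UHMK1 (0.18) and PIK3CD (0.18). For SLC4A1 they were C1orf116 (0.98), PRG2 (1.05) and COL1A1 (1.101), at a larger distance than for the other two. PRG2 stood at 12.2 and 279 CPM in untreated and treated WT and at 10.1 and 86.5 CPM in KO.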

How the data were processed

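Total RNA of 12 K562 libraries was sequenced, and the authors deposited raw gene counts, listed by symbol. The submitters' processing notes name STAR 2.7.11b, FastQC 0.12.1 and hg38. The counting tool, annotation, strand setting and filters are not given in the sources used here. Groups and numbers come from sample titles, columns were matched by library name, and 0 columns were left unused. Counts were analysed in R 4.3.3 with edgeR 4.0.16: filterByExpr (minimum count 10), TMM, 1 mean per group, the quasi-likelihood F-test and Benjamini-Hochberg adjustment over 15805 genes at a threshold of 0.05. The script was tested on simulated data. Standard errors are the log2 fold change over the root of F. Where every library of a group had at most 3 counts, the fold was taken against that limit, which covers counting error only. DESeq2 1.42.0, other scalings, no filter, a replicate block and left-out libraries were alternatives. Exon lengths are GENCODE v29 unions.

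The members and lists were chosen with earlier results of these data known. Named genes are the 9 members, SLC48A1, the markers that were most abundant or at 0, and the 3 genes nearest to SLC4A1, TMOD1 and TMOD2. List genes past the threshold are named too (at most 5 per list and contrast by p-value). The 8 neighbours of TMOD2, TPM1, EPB41L2, ADD1, ANK2 and some of the marker genes were added after values were seen. Part of 1 gene list is not reported here. Libraries of a group differed by more than sampling noise, with a chi-square of at least 39.95 per degree of freedom.

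Same-numbered libraries deviated together from their group means, with correlations over genes of 0.195 to 0.409 for butyrate in WT, 0.147 to 0.468 for butyrate in KO, 0.210 to 0.361 for genotype untreated and 0.315 to 0.595 treated. Differently numbered libraries reached at most 0.186, 0.123, 0.0692 and 0.343 in the same order, so that for treated genotype the ranges overlapped. The numbers may thus pair the libraries, but the labels do not say so. The main fits hold no block, and the replicate block is given where it changes a call.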

Additional observations from a re-analysis of the deposited data

Results flagged for a closer look

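TMOD1 was marked because its genotype difference had the opposite direction with and without butyrate in every same-numbered pair of libraries. KO minus WT averaged 0.28 in the 3 untreated pairs, all above 0, and -0.30 in the 3 treated pairs, all below 0, a gap of 0.58 on the log2 scale. The treated pairs were at -0.69, -0.03 and -0.18 for numbers 1, 2 and 3. The treated mean thus rested mostly on number 1, and number 2 was close to 0. The edgeR interaction was -0.57 (SE 0.34, adjusted p 1.00, unadjusted p 0.123) and did not pass.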

How the results depend on the processing

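Each result was recomputed with a replicate block, DESeq2, DESeq2 size factors in edgeR, library size alone, no filter, without the libraries numbered 1 and without each library in turn. Of the members' log2 changes, 238 values under the other alternatives kept direction and side of the threshold, 12 turned direction, none of them past the threshold before or after, 7 were gained and 1 was lost; leaving out 1 library kept 261, turned 18, lost 24 and gained 3. The cause was not tested.

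Of the 9 members, 2 passed for butyrate in WT with the block, in DESeq2 and without the libraries numbered 1, and 2 passed for butyrate in KO in DESeq2 and without those libraries, against 1 in each as reported. Leaving out single libraries gave 0 to 2 members in WT and 0 to 1 in KO for butyrate, 2 to 5 for genotype untreated and 2 to 4 treated, and 0 for the interaction. The count of all genes passing was 372 for butyrate in WT (1361 with the replicate block, 1296 in DESeq2, 1884 without the libraries numbered 1, 43 to 1243 without single libraries). It was 537 for butyrate in KO (1852, 1490, 2164 and 48 to 833, in the same order), 3009 for genotype in treated cells (4612 with the block, 2014 to 3477 without single libraries) and 3574 untreated (2485 to 2844). For the interaction it was 0, with 658 at an unadjusted p under 0.05, and 3 with the block, 81 in DESeq2, 9 without the libraries numbered 1, 2 with no filter and 0 to 2 without single libraries. The TMOD1 to TMOD2 ratio differed by 11.02 between genotypes without the libraries numbered 1 (exact permutation p 0.0556, the smallest that design allows), and by 10.2 with the block (exact sign-flip p 0.0313). These p-values only restate the zeros of TMOD2 in KO.

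No value that turned direction passed the threshold before or after. Without the libraries numbered 1, butyrate gave -0.61 for ANK1 and -0.16 for EPB41 in WT and -0.37 for ANK1 and -0.18 for EPB42 in KO, SLC4A1 differed by 0.33 between treated genotypes, and the interactions were 0.13 for SLC4A1 and 0.047 for EPB41. ANK1 in WT was -0.18 with the block and -0.0052 with library size alone. TMOD1 in KO was 0.0072 with DESeq2 size factors, 0.091 with library size alone and 0.0067 in DESeq2. Over fits leaving out 1 library, butyrate ranged from -0.74 to 0.40 for ANK1 in WT and in KO from -0.46 to 0.61 for ANK1, -0.22 to 0.036 for EPB41, -0.49 to 0.54 for EPB42 and -0.21 to 0.0995 for TMOD1. Treated genotype differences ranged from -1.14 to 0.37 for ANK1, -1.17 to 0.068 for SLC4A1 and -0.064 to 0.44 for SPTB, and the ANK1 interaction from -0.53 to 1.01. EPB42 is limited by depth, at 0 to 8 counts per KO library.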
